A study of Homo sapiens with 24 samples.

Results

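ID1, ID2, ID3, ID4, SMAD6, SMAD7, CCN1, CCN2 and BAMBI are 9 targets of bone morphogenetic protein (BMP) or transforming growth factor beta (TGF-beta) signalling, out of 54583 genes in the count table. ID2 was chosen from its measured values, because its total RNA was lower with cercosporamide than with DMSO, and the other members were chosen as BMP and TGF-beta targets to set beside it. The values came from PANC-1 cells, a single human epithelial line derived from a carcinoma of the pancreatic duct and grown in complete medium with fetal bovine serum. Each plate received DMSO as the solvent control, 40 µM CID661578 or 5 µM cercosporamide. CID661578 is a small molecule described as a ligand of the kinase MNK2, and cercosporamide is a known inhibitor of the MNK kinases. Treatment lasted 6 h and each treatment had 4 biological replicates. From each of the 12 plates, total cytosolic RNA and RNA bound to more than 3 ribosomes, called polysome-associated RNA, were sequenced separately, which gave 24 libraries. The comparisons asked how each target differed between treatments in either fraction, and how it was divided between the fractions. The DMSO libraries served as control for both compounds, and the doses of the compounds differed.

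BMP and TGF-beta ligands bind pairs of serine/threonine kinase receptors, which phosphorylate SMAD1, SMAD5 and SMAD9 in the BMP branch or SMAD2 and SMAD3 in the TGF-beta branch, and these enter the nucleus with SMAD4 to regulate target genes. The ID genes are direct targets of the BMP branch, and their products lack a DNA-binding domain and sequester E proteins such as TCF3, the partners of the basic helix-loop-helix factors that direct acinar and endocrine differentiation in the pancreas. SMAD6, SMAD7 and BAMBI are induced by the pathway and inhibit it in return, whereas CCN1 and CCN2 encode secreted matricellular proteins and are also transcribed under YAP and TEAD.

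Markers of the line were present in every library. The epithelial keratin KRT8 had at least 11925 counts per library, KRT18 at least 8300, KRT19 at least 6149 and the mesenchymal filament gene VIM at least 3289, while KRT7 was low, with 5 to 298 counts. Acinar PRSS1 and CTRB1, endocrine INS and SST and the leukocyte gene PTPRC had 0 counts in all 24 libraries. The other markers of cells that should be absent were at or near the floor or low, with at most 3 counts for CPA1 and GCG, 14 for CELA3A, 5 for PECAM1, 82 for COL1A1 and 155 for COL3A1. Cercosporamide replicate 4 had the shallowest library, with 1592459 counted reads and 13287 genes detected on polysomes, and the remaining libraries held between 9268041 and 12184749 reads. Levels are given in CPM, the counts scaled to library size after TMM normalization and expressed per 1e+06 reads. No spike-in RNA was listed, so a level is a share of its library and not an absolute amount. In these bulk samples, fewer cells expressing a gene and less RNA of that gene per cell cannot be told apart.

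Of the 9 members, 6 had a read in every library and were tested with edgeR among 12058 such genes, namely ID1, ID2, ID3, SMAD7, CCN1 and CCN2. ID4, SMAD6 and BAMBI each had libraries without a read and were not tested. Per kilobase of transcript, ID3 and ID1 had the highest levels in total RNA with DMSO, at 462 ± 23.1 and 430 ± 113 CPM per kb (mean ± SD, n = 4), and these did not differ beyond their spread. CCN1 followed at 225 ± 49.2, CCN2 at 60.3 ± 37.3 and ID2 at 36.0 ± 18.7 CPM per kb, and the last pair overlapped within their spread. SMAD7 was expressed far lower, at 0.945 ± 0.234 CPM per kb. ID4 stood at 0.155 ± 0.117 and SMAD6 at 0.0136 ± 0.0271 CPM per kb, and BAMBI had no read. In polysome-associated RNA with DMSO, ID1 led at 544 ± 117 CPM per kb, ahead of ID3 at 266 ± 65.4 and CCN1 at 224 ± 103, and ID2 stood at 17.7 ± 10.5. The inhibitor of differentiation genes were thus expressed at unlike levels, with ID1 and ID3 abundant, ID2 moderate and ID4 at the limit of detection.

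**Figure D1:**
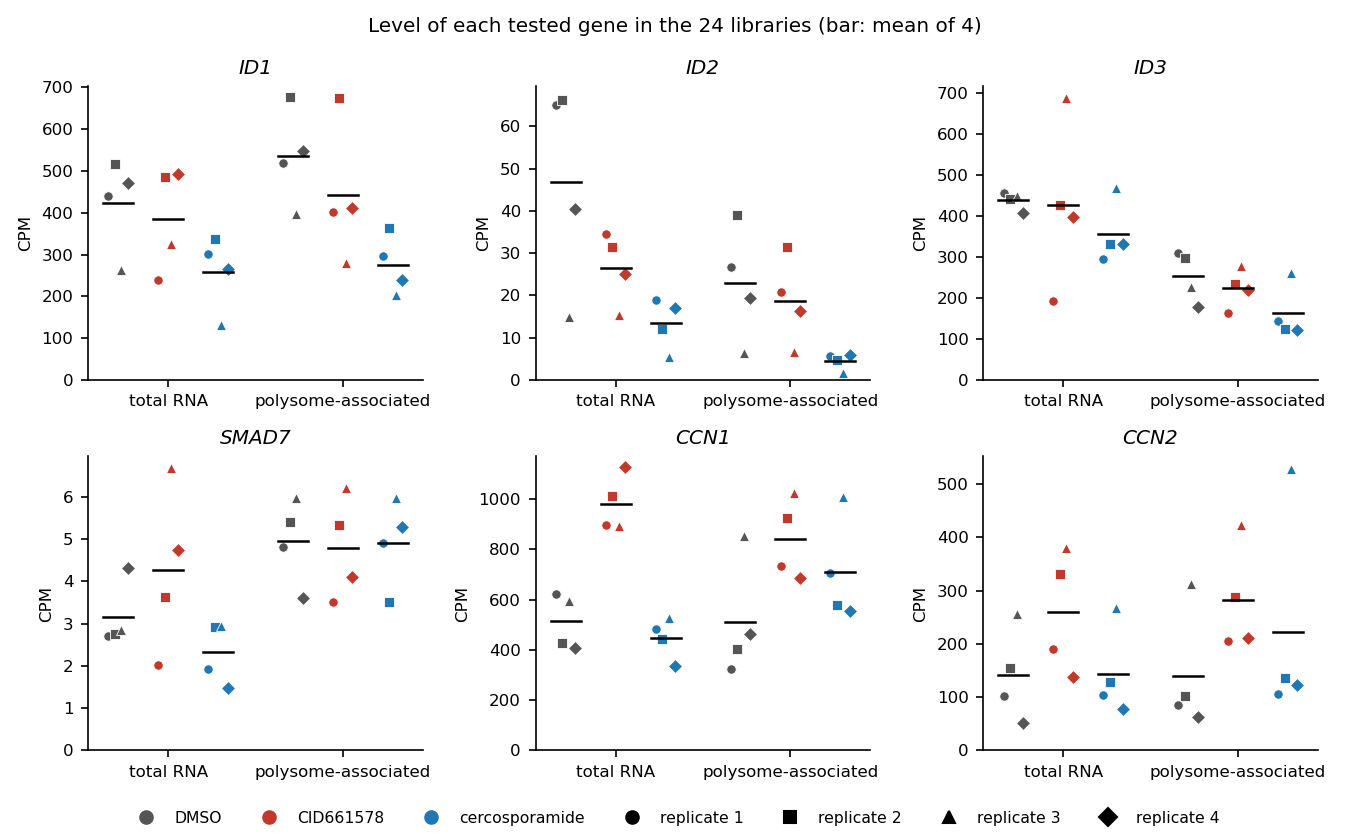
Levels of the 6 tested members in the 24 libraries, in CPM, by treatment and fraction; each point is one library, its shape gives the replicate number and the bar is the mean of 4 replicates. The 4 cercosporamide polysome libraries lie below all 4 DMSO polysome libraries for ID1 and ID2, and the 4 CID661578 total libraries lie above all 4 DMSO total libraries for CCN1.

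The tested ID genes and the CCN genes moved in opposite directions in polysome-associated RNA with cercosporamide, where ID1, ID2 and ID3 fell and CCN1 and CCN2 rose. With CID661578, CCN1 and CCN2 rose in both fractions, and no tested ID gene passed the test in either. A gene was called at a Benjamini-Hochberg adjusted p below 0.15 over all genes tested. With cercosporamide in polysome-associated RNA, edgeR called 5 of the 6 tested members, against 32.2% of all genes tested (3881 of 12058), and with CID661578 it called 2 of 6, against 10.1% (1221). The members called with cercosporamide were ID2 and, besides it, ID1, ID3, CCN1 and CCN2. The polysome RNA of ID2 came from the same plates as the total RNA that chose it, so its call is not independent of the choice. In total RNA with CID661578, where ID2 was left without a test because the DMSO libraries had served to choose it, edgeR called 2 of 5 members, against 0.448% of all genes (54). In total RNA with cercosporamide, the comparison that chose ID2, 1 of the 6 members was past the threshold, ID2 itself, beside 0.381% of all genes (46), and the values of all members there are a description with no test. Translational efficiency (TE) change is the change in polysome-associated RNA minus the change in total RNA, called at the same adjusted p and a change above 1.2-fold. For TE, edgeR called 2 of 5 members with cercosporamide, against 28.4% of all genes (3422). With CID661578, edgeR called 0 of 5 members for TE, against 0.207% of all genes (25), with 0 members at an unadjusted p below 0.05 and 0 called by DESeq2.

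**Figure D2:**
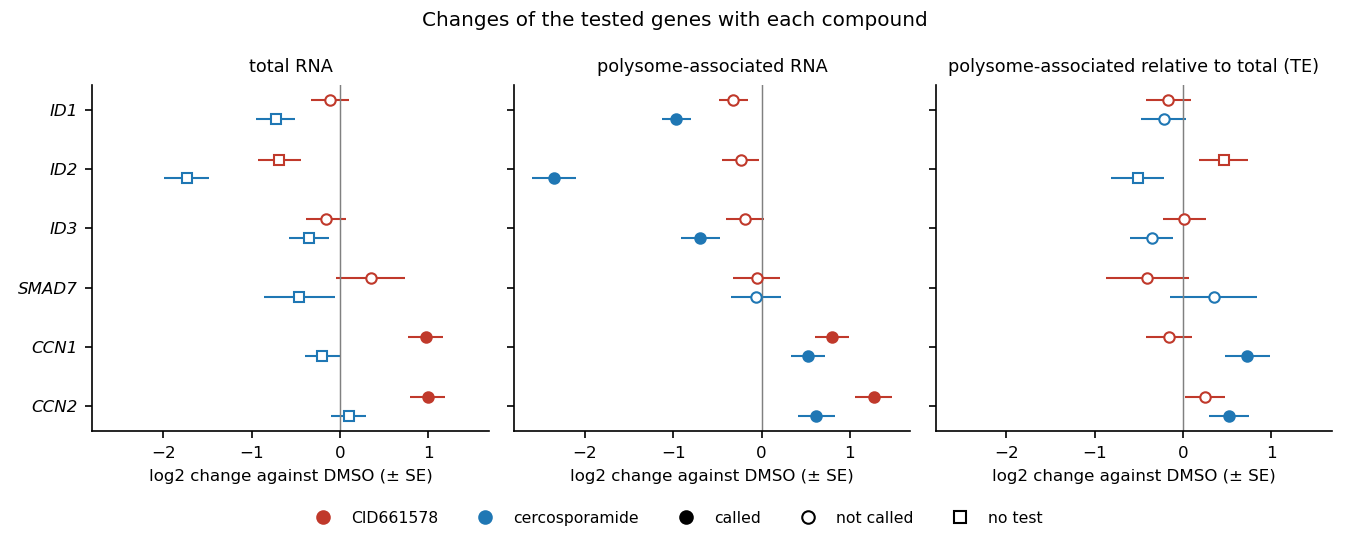
Log2 change of the 6 tested members against DMSO with each compound in total RNA, in polysome-associated RNA and in TE; points are edgeR estimates and bars are 1 SE. Filled circles mark genes called, open circles genes tested and not called, and open squares values without a test; ID2 shows the lowest value, -2.35 in polysome-associated RNA with cercosporamide.

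ID2 encodes an ID protein that is induced by BMP signalling in many cell types. In total RNA, ID2 stood at 65.2, 66.4, 15.0 and 40.5 CPM in DMSO replicates 1 to 4, and at 18.9, 12.0, 5.53 and 17.1 CPM with cercosporamide. Replicate 3 was the lowest of both groups, and its DMSO library lay below 2 of the 4 cercosporamide libraries, so the groups overlapped although each cercosporamide library was below the DMSO library of its own number. The log2 change was -1.73 (SE 0.256, n = 4), with -1.77, -2.45, -1.41 and -1.23 in replicates 1 to 4. By size it was the third largest among 11 genes that were lower past the threshold, and the adjusted p from edgeR nearest to the threshold were 0.148 inside and 0.151 outside it. With CID661578, ID2 stood at 34.5, 31.4, 15.3 and 25.0 CPM in total RNA, a log2 change of -0.68 (SE 0.247), lower in 3 of 4 replicates and without a test.

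The polysome libraries had no part in the choice of ID2, but they came from the same plates. A test of ID2 with cercosporamide in this fraction is therefore not independent of the choice. With DMSO, ID2 stood at 26.8, 39.2, 6.44 and 19.4 CPM in polysome-associated RNA, and with cercosporamide at 5.64, 4.81, 1.63 and 5.96 CPM, from 69, 59, 18 and 9 counts. All 4 cercosporamide libraries lay below the lowest DMSO library, that of replicate 3. ID2 fell 5.09-fold, a log2 change of -2.35 (SE 0.25, 95% interval -2.87 to -1.83), lower in 4 of 4 replicates, with an adjusted p of 4.01e-06 by edgeR. The call held under all 13 alternative settings, with log2 changes between -2.53 and -2.04 and an adjusted p of at most 0.0133 by edgeR. With CID661578, ID2 stood at 20.8, 31.4, 6.69 and 16.3 CPM in polysome-associated RNA. These values overlapped those with DMSO, and the log2 change of -0.24 (SE 0.211, lower in 3 of 4 replicates) was not called by edgeR (adjusted p = 0.568). For TE, ID2 had a log2 change of -0.52 (SE 0.299) with cercosporamide and 0.46 (SE 0.274) with CID661578, each with one sign in 4 of 4 replicates, and neither had a test because total RNA entered the choice. Over the alternatives the value with cercosporamide ranged from -0.59 to -0.22, the latter with the GC trend removed.

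ID1, the ID gene with the most RNA on polysomes, went the same way as ID2 with a smaller change. In polysome-associated RNA, ID1 stood at 519, 676, 397 and 547 CPM with DMSO and at 298, 363, 203 and 239 CPM with cercosporamide. The highest cercosporamide library, replicate 2, lay below the lowest DMSO library, replicate 3. ID1 fell 1.95-fold (log2 change -0.96, SE 0.167), lower in 4 of 4 replicates, with an adjusted p of 0.000388 by edgeR, and kept its call under all 13 alternatives. With CID661578 the 4 values were 403, 674, 281 and 412 CPM, a log2 change of -0.32 (SE 0.165) that was lower in 4 of 4 replicates but not called by edgeR (adjusted p = 0.297). In total RNA, ID1 stood at 439, 516, 264 and 471 CPM with DMSO and at 300, 337, 132 and 265 CPM with cercosporamide, overlapping groups with a log2 change of -0.73 (SE 0.218), lower in 4 of 4 replicates and given without a test. With CID661578, total ID1 was 239, 484, 326 and 492 CPM, and the change of -0.11 (SE 0.218, lower in 2 of 4 replicates) was not called by edgeR (adjusted p = 0.967). Neither compound passed the test for TE of ID1, where edgeR gave a log2 change of -0.22 (SE 0.255, adjusted p = 0.605, lower in 3 of 4 replicates) with cercosporamide and -0.17 (SE 0.255, adjusted p = 0.854, lower in 2 of 4) with CID661578.

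ID3 had a replicate pattern unlike those of ID1 and ID2. With DMSO, ID3 stood at 309, 299, 227 and 178 CPM in polysome-associated RNA, and with cercosporamide at 145, 124, 260 and 121 CPM. Replicates 1, 2 and 4 were lower with cercosporamide, replicate 3 was higher, and the groups overlapped. ID3 fell 1.61-fold (log2 change -0.69, SE 0.221), lower in 3 of 4 replicates, with an adjusted p of 0.0332 by edgeR. This call was lost without the replicate term, without replicate 2 and after a GC trend was removed from each library, and over the 13 alternatives the adjusted p from edgeR or DESeq2 ran from 0.00131 to 0.226. In total RNA, ID3 was uniform with DMSO, at 457, 443, 450.0 and 407 CPM, and ranged from 194 to 689 CPM with CID661578 and from 294 to 469 CPM with cercosporamide. The log2 change in total RNA was -0.16 (SE 0.229, lower in 3 of 4 replicates) with CID661578, not called by edgeR (adjusted p = 0.952), and -0.35 (SE 0.226) with cercosporamide, without a test. The annotated gene LOC124903876 overlaps ID3. The authors' counting ignored the strand and dropped reads that overlap more than 1 gene. Any reads where exons of both genes overlap in the annotation they used would thus be missing from the counts of ID3. Whether exons of both overlap there was not checked, and the level of ID3 is uncertain to that extent.

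ID4 was barely detected. It had 83 reads over the 24 libraries, between 0 and 11 per library, with 4 libraries at 0, and no comparison called it when the filter was lifted. Its highest library was DMSO replicate 1 in total RNA, at 1.04 CPM from 10 reads. At this depth a difference in ID4 between treatments was not detectable.

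The feedback inhibitors had few reads. SMAD7, which recruits ubiquitin ligases to the type I receptors, had 8 to 77 counts per library. In total RNA it stood at 2.70, 2.75, 2.86 and 4.33 CPM with DMSO, between 2.01 and 6.70 with CID661578 and between 1.49 and 2.96 with cercosporamide. In polysome-associated RNA the group means were 4.96 ± 1.01, 4.79 ± 1.21 and 4.92 ± 1.04 CPM (mean ± SD, n = 4) in the same order, closer to each other than the spread between replicates. No change in SMAD7 against DMSO was called by edgeR. In polysome-associated RNA with cercosporamide the log2 change was -0.06 (SE 0.279, 95% interval -0.64 to 0.52, higher in 3 of 4 replicates, adjusted p = 0.902 by edgeR). With CID661578 it was -0.05 (SE 0.264, 95% interval -0.60 to 0.50, lower in 2 of 4 replicates, adjusted p = 0.943 by edgeR), and the sign turned under some alternatives for both compounds.

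SMAD6, which competes with SMAD4 for SMAD1, and BAMBI, a pseudoreceptor without a kinase domain, were near the floor. SMAD6 had 36 reads over the 24 libraries, between 0 and 7 per library, with 8 libraries at 0. With DMSO, 16 of these reads were in the 4 polysome libraries and 2 in the 4 total libraries. BAMBI had 3 reads in all, each in a polysome library, and 0 in all 12 total libraries, where a count of 0 allows up to 0.246 to 0.320 CPM, before TMM scaling, by counting error alone. Neither gene was called in any comparison when the filter was lifted, and a difference was not detectable at this depth.

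Promoter sequence was available for 8 of the 9 members in the RefSeq GRCh38.p14 table, in 10 windows from 250 bases before to 50 bases after an annotated start. It was searched on both strands for a SMAD palindrome (GTCTAGAC), a GC-rich motif known for SMAD1 and SMAD5 (GGCGCC) and a TEAD motif (GGAATG), which were present in 0.202%, 19.2% and 14% of 35116 promoter windows of the same length. CCN2 held 3 TEAD matches, beginning 169, 104 and 95 bases before the start, and 0.128% of all windows held 3 or more. SMAD6 held the SMAD palindrome from base -12, and BAMBI held 3 GC-rich matches, from -209, -196 and -181, where 0.871% of all windows held 3 or more. ID1 and ID4 held 1 TEAD match each, ID2, ID3 and SMAD7 held none of the 3 motifs in these windows, and CCN1 was not in the table. The stretches below show the CCN2 matches, because CCN2 passed the test with both compounds, and the matches of the feedback inhibitors SMAD6 and BAMBI, with the motif letters in capitals. A match is a description of the letters and not a measured binding site.
CCN2, chr6:131951518-131951547, minus strand: gacggaGGAATGctgagtgtcaaggggtca
CCN2, chr6:131951453-131951482, minus strand: tggggaGGAATGcgaGGAATGtccctgttt
SMAD6, chr15:66702206-66702235, plus strand: ccgcggagccgccaaagtGTCTAGACtggc
BAMBI, chr10:28677306-28677335, plus strand: cagccgGGCGCCccagccgGGCGCCccaga
BAMBI, chr10:28677334-28677363, plus strand: gacgccGGCGCCgctcggagccgccgggca

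CCN1 and CCN2, which encode secreted proteins that bind integrins in the matrix, were higher with CID661578 in both fractions. In total RNA, CCN1 stood at 624, 427, 595 and 407 CPM with DMSO and at 896, 1012, 891 and 1129 CPM with CID661578. All 4 CID661578 libraries lay above the highest DMSO library. CCN1 rose 1.96-fold (log2 change 0.97, SE 0.199), higher in 4 of 4 replicates, with an adjusted p of 0.0445 by edgeR. CCN2 stood at 102, 155, 255 and 51.5 CPM with DMSO and at 190, 332, 380 and 138 CPM with CID661578. The groups overlapped, because the replicates of CCN2 were far apart, but each CID661578 library was above the DMSO library of its own number. CCN2 rose 1.99-fold (log2 change 1.00, SE 0.196), higher in 4 of 4 replicates, with an adjusted p of 0.0359 by edgeR. Both calls were lost without the replicate term, without replicate 2 and without replicate 4, with log2 changes of at least 0.80 for CCN1 and 0.88 for CCN2 over the 12 alternatives and the adjusted p from edgeR or DESeq2 ranging from 0.000226 to 0.755 and from 0.000877 to 1.

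In polysome-associated RNA, CCN1 stood at 325, 402, 852 and 465 CPM with DMSO, at 735, 923, 1024 and 686 CPM with CID661578 and at 706, 577, 1009 and 554 CPM with cercosporamide. Replicate 3 was the highest library in all 3 groups, and only its DMSO library overlapped the treated groups. CCN1 rose 1.73-fold with CID661578 (log2 change 0.79, SE 0.192, adjusted p = 0.0251 by edgeR) and 1.44-fold with cercosporamide (log2 change 0.52, SE 0.192, adjusted p = 0.0602 by edgeR), each higher in 4 of 4 replicates. CCN2 stood at 85.0, 102, 313 and 62.8 CPM with DMSO, at 206, 288, 424 and 212 CPM with CID661578 and at 106, 135, 528 and 123 CPM with cercosporamide. The DMSO library of replicate 3 again lay among the treated libraries, and within each replicate number both treated libraries were above the DMSO library. CCN2 rose 2.41-fold with CID661578 (log2 change 1.27, SE 0.212, adjusted p = 0.00133 by edgeR) and 1.54-fold with cercosporamide (log2 change 0.62, SE 0.21, adjusted p = 0.043 by edgeR), each higher in 4 of 4 replicates. With CID661578 both calls were lost only without the replicate term, among 12 alternatives. With cercosporamide the CCN1 call was lost in 5 of 13 alternatives, namely without the replicate term, without a filter, at an adjusted p of 0.05, without replicate 1 and without replicate 2, and the CCN2 call was lost without the replicate term and without replicate 4. The log2 change of CCN1 with cercosporamide was 1.12, 0.52, 0.24 and 0.25 in replicates 1 to 4, and ranged from 0.33 to 0.65 over these alternatives.

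The total RNA of CCN1 and CCN2 was near the DMSO level with cercosporamide. CCN1 stood at 483, 443, 526 and 334 CPM, a log2 change of -0.20 (SE 0.197), and CCN2 at 104, 128, 267 and 77.2 CPM, a log2 change of 0.10 (SE 0.195), both given without a test. TE rose with cercosporamide for CCN1 (log2 change 0.73, SE 0.259, higher in 4 of 4 replicates, adjusted p = 0.0562 by edgeR) and for CCN2 (0.52, SE 0.228, higher in 4 of 4 replicates, adjusted p = 0.126 by edgeR). The CCN1 call was lost at an adjusted p of 0.05 and without replicate 1, and the CCN2 call in 9 of 13 alternatives, including each of the 4 with a replicate left out. The TE change of CCN1 with cercosporamide was 1.49, 0.47, 0.42 and 0.54 on the log2 scale in replicates 1 to 4, and ranged from 0.47 to 0.84 over the alternatives. With CID661578, the log2 TE change was -0.16 (SE 0.259, lower in 3 of 4 replicates, adjusted p = 0.87 by edgeR) for CCN1 and 0.24 (SE 0.227, higher in 3 of 4, adjusted p = 0.753 by edgeR) for CCN2. The annotated antisense gene CCN2-AS1 overlaps CCN2, whose level is uncertain in the same way.

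The compounds were also set directly against each other, at doses that differed. In polysome-associated RNA, edgeR called 4 of the 6 tested members, against 22.3% of all genes (2683), all of them higher with CID661578 than with cercosporamide. They include ID2, whose cercosporamide polysome libraries share plates with the total RNA that chose it. ID2 was 4.32-fold higher with CID661578 (log2 difference 2.11, SE 0.25, higher in 4 of 4 replicates, adjusted p = 5.82e-05 by edgeR), and this call held under all 13 alternatives. ID1 was 1.57-fold higher (log2 difference 0.65, SE 0.166, 4 of 4 replicates, adjusted p = 0.0192 by edgeR). ID3, with 0.50 (SE 0.219, 4 of 4 replicates, adjusted p = 0.148 by edgeR), and CCN2, with 0.65 (SE 0.211, 3 of 4 replicates, adjusted p = 0.0549 by edgeR), passed more narrowly. The call of ID1 was lost in 2, that of ID3 in 7 and that of CCN2 in 4 of 13 alternatives, all 3 of them without the replicate term and without replicate 2. For CCN1 the difference was 0.27 (SE 0.191, 95% interval -0.13 to 0.67, higher in 4 of 4 replicates) and was not called by edgeR (adjusted p = 0.391). For SMAD7 it was 0.01 (SE 0.279, 95% interval -0.57 to 0.59, higher in 2 of 4 replicates), also not called by edgeR (adjusted p = 0.988).

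In total RNA, the CCN genes set the compounds apart. Against cercosporamide, edgeR called 2 of 5 tested members, against 0.572% of all genes (69), and ID2, with a log2 difference of 1.05 (SE 0.254), had no test. CCN1 was 2.25-fold higher with CID661578 (log2 difference 1.17, SE 0.2, higher in 4 of 4 replicates, adjusted p = 0.0104 by edgeR). CCN2 was 1.86-fold higher (log2 difference 0.90, SE 0.196, higher in 4 of 4 replicates, adjusted p = 0.0932 by edgeR). The CCN1 call was lost without replicate 4, and the CCN2 call in 5 of 12 alternatives. ID1 was not called by edgeR (0.62, SE 0.221, higher in 3 of 4 replicates, adjusted p = 0.374), although it passed when the filter was lifted and when the GC trend was removed, and its adjusted p by edgeR or DESeq2 ranged from 0.058 to 0.935.

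Between polysome-associated and total RNA with DMSO, edgeR called 3 of 5 tested members, a share near the 54.1% of all genes (6522). ID3 was lower on polysomes than in total RNA (log2 difference -0.83, SE 0.185, lower in 4 of 4 replicates, adjusted p = 0.000701 by edgeR), and this held under all 12 alternatives. ID1 passed as higher on polysomes (0.36, SE 0.185, 95% interval -0.02 to 0.74, 4 of 4 replicates, adjusted p = 0.121 by edgeR), as did SMAD7 (0.65, SE 0.327, 95% interval -0.02 to 1.32, 3 of 4 replicates, adjusted p = 0.114 by edgeR). Both intervals include 0, the unadjusted p were 0.0625 and 0.0577, and the calls were lost in 4 and 5 of 12 alternatives. ID2 had a log2 difference of -1.07 (SE 0.21), lower in 4 of 4 replicates, without a test because its DMSO total libraries entered the choice, and -0.80 with scaling within each fraction. CCN1 and CCN2 each had a log2 difference of -0.07 (SE 0.203 and 0.196, 95% intervals -0.49 to 0.34 and -0.47 to 0.33, both lower in 2 of 4 replicates), which edgeR did not call (adjusted p = 0.798 and 0.799). Scaling within each fraction moved the median of all genes from -0.02 to 0.26 and the CCN1 and CCN2 differences to 0.20 each, near that median, and their sign also turned under both alternative filters.

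The replicates had a pattern of their own across treatments. Replicate 3 was the lowest library for ID2 in 6 of 6 groups of treatment and fraction and for ID1 in 5 of 6. It was the highest library for CCN2 in 6 of 6 groups, for SMAD7 in 5 of 6 and for CCN1 and ID3 in 4 of 6. Within each group, the library with the least ID2 thus had the most CCN2.

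Across the 24 libraries, with log2 CPM centred within each fraction, the gene most like ID2 among 7538 genes with a mean log2 CPM of at least 3 was ID1 (Pearson r = 0.84, Spearman rho = 0.79). The next were UBE2G1, a ubiquitin-conjugating enzyme gene (0.79), ICMT, the isoprenylcysteine methyltransferase gene (0.76), PRUNE1 (0.75) and FAT1, a protocadherin gene (0.75). These coefficients describe libraries that share plates, treatments and replicates. Between ID2 and ID1, r was 0.78 over the 12 total libraries (rho 0.62), 0.91 over the 12 polysome libraries (rho 0.88) and 0.72 after centring within each treatment and fraction (rho 0.52). Without the 2 libraries farthest from the median of ID2, r was 0.76 over the rest of the 24, 0.50 over the rest of the total libraries, 0.83 over the rest of the polysome libraries and 0.66 after centring within each treatment and fraction. ID3 ranked 2468 by likeness to ID2 (r = 0.14, rho 0.21), with a sign that depended on the libraries used. Between ID2 and ID3, r was -0.11 over the total libraries (rho -0.14), 0.32 over the polysome libraries (rho 0.50) and -0.39 within treatments and fractions (rho -0.19), and without the 2 libraries farthest from the median of ID2 these 3 values were -0.09, 0.51 and -0.51, and that over the rest of the 24 was 0.35. CCN1 (r = -0.24, rank 5401 of 7538) and CCN2 (r = -0.42, rank 6569) had negative coefficients with ID2. Neither was computed within treatments. CCN1 and CCN2 varied with each other (r = 0.75, 0.68 within treatments and fractions, and 0.47 there without the 2 libraries farthest from the median of CCN2). ID3 was nearer to SMAD7 (r = 0.60) than to ID2.

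**Figure D3:**
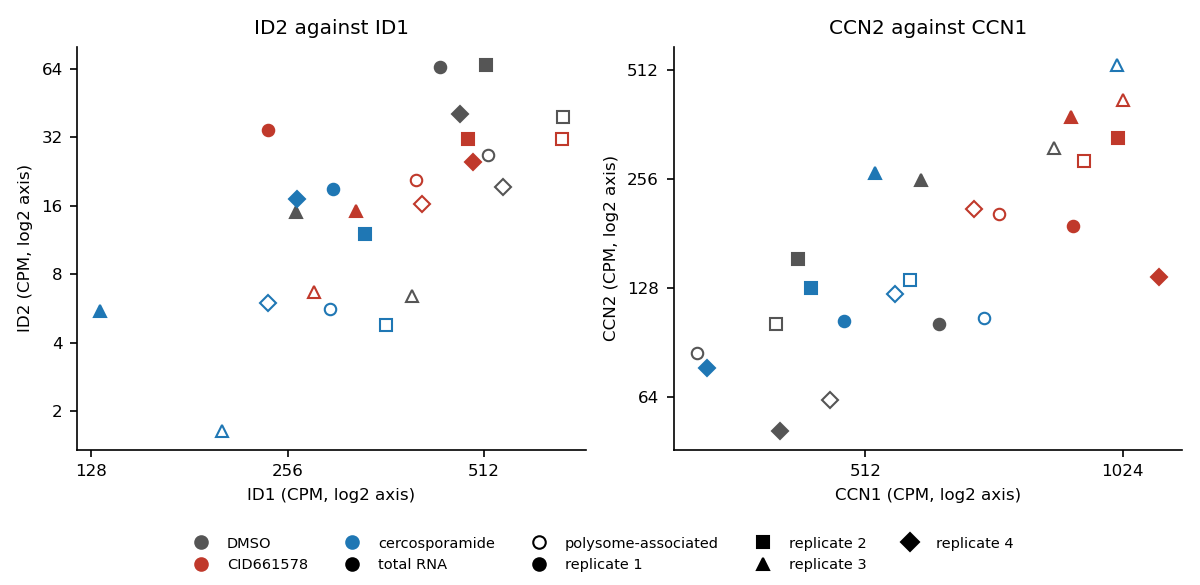
ID2 against ID1 and CCN2 against CCN1, in CPM on log2 axes, with one point per library, filled for total and open for polysome-associated RNA and coloured by treatment. ID2 varied with ID1 (r = 0.84 over 24 libraries centred within fraction), and CCN2 with CCN1 (r = 0.75).

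Other genes of the pathways were described by role, in lists. Over all genes, edgeR called 10.1% in polysome-associated RNA with CID661578 and 32.2% with cercosporamide, the median log2 change was -0.01 for both, and for TE with cercosporamide it called 28.4%. Of 15 ligands, 6 were tested. In polysome-associated RNA, edgeR called 2 of the 6 with CID661578 and 1 with cercosporamide, against these 10.1% and 32.2%, with list medians of -0.25 and 0.12. GDF15, a distant member of the TGF-beta family that is induced by cell stress, rose with CID661578 in total RNA (log2 change 2.11, SE 0.373, higher in 4 of 4 replicates, adjusted p = 0.0135 by edgeR). It also rose in polysome-associated RNA (1.59, SE 0.321, higher in 3 of 4, adjusted p = 0.00751 by edgeR), where the activin subunit gene INHBB fell by 1.00 on the log2 scale (SE 0.298, lower in 3 of 4, adjusted p = 0.0689 by edgeR). With cercosporamide, the ligand gene TGFB2 rose in polysome-associated RNA (0.70, SE 0.248, higher in 4 of 4, adjusted p = 0.0534 by edgeR). For TE with cercosporamide, where edgeR called 2 of the 6 ligands against 28.4% of all genes, BMP6 (1.02, SE 0.347, adjusted p = 0.0452 by edgeR) and TGFB2 (1.01, SE 0.39, adjusted p = 0.0795 by edgeR) rose in 4 of 4 replicates. The other ligands went the other way, with 4 of the 6 estimates below 0 and a list median of -0.31 for TE, against -5e-04 over all genes. Among 14 receptors, 10 were tested, and in polysome-associated RNA edgeR called 1 of the 10 with CID661578, near the 10.1% of all genes, and 2 with cercosporamide, below the 32.2%, with list medians of 0.14 and 0.15. ACVR1, a type I receptor gene for BMPs, rose in polysome-associated RNA with CID661578 (0.54, SE 0.192, 4 of 4, adjusted p = 0.12 by edgeR) and with cercosporamide (0.68, SE 0.197, 4 of 4, adjusted p = 0.0194 by edgeR). AMHR2, the type II receptor gene for anti-Müllerian hormone, rose there with cercosporamide (0.97, SE 0.379, 4 of 4, adjusted p = 0.0792 by edgeR). AMHR2 also rests on few reads, with 9 to 15 counts per polysome library with DMSO and 3 to 34 with cercosporamide.

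The signal-transducing SMADs did not pass in the comparisons with DMSO. All 6 of SMAD1, SMAD2, SMAD3, SMAD4, SMAD5 and SMAD9 were tested, and edgeR called 0 of them in each of the 6 comparisons with DMSO, against at most 32.2% of all genes (polysome-associated RNA with cercosporamide), with 0 at an unadjusted p below 0.05 and 0 called by DESeq2. Their median log2 change in polysome-associated RNA was -0.18 with cercosporamide and 0.16 with CID661578, where the median of all genes was -0.01 for both. Between compounds in that fraction, edgeR called 1 of the 6, SMAD9, as higher with CID661578, against 22.3% of all genes. Between fractions with DMSO it called 1 of the 6, SMAD5, as higher on polysomes, against 54.1% of all genes. Of 19 extracellular antagonists, ubiquitin ligases and co-repressors, 14 were tested. In polysome-associated RNA, 3 of the 14 rose with CID661578, against 10.1% of all genes called, and 3 rose and 2 fell with cercosporamide, a share near the 32.2% of all genes, with list medians of 0.06 and 0.03. NOG, which encodes the BMP antagonist noggin, stood at 3.29 ± 0.644 CPM with DMSO, 8.38 ± 3.85 with CID661578 and 9.39 ± 3.68 with cercosporamide in that fraction (mean ± SD, n = 4). It rose with CID661578 (log2 change 1.29, SE 0.359, higher in 4 of 4, adjusted p = 0.0545 by edgeR) and with cercosporamide (1.52, SE 0.373, higher in 4 of 4, adjusted p = 0.00686 by edgeR). SKI and SKIL encode related co-repressors of SMAD proteins. SKI fell in polysome-associated RNA with cercosporamide (-1.47, SE 0.332, lower in 4 of 4, adjusted p = 0.0039 by edgeR), whereas SKIL rose there with cercosporamide (0.55, SE 0.219, higher in 4 of 4, adjusted p = 0.0814 by edgeR) and with CID661578 (0.72, SE 0.211, higher in 4 of 4, adjusted p = 0.064 by edgeR), and in TE with cercosporamide (1.26, SE 0.33, 4 of 4, adjusted p = 0.0112 by edgeR). TGIF1, another co-repressor, rose with CID661578 (0.85, SE 0.204, higher in 3 of 4, adjusted p = 0.0228 by edgeR), and TWSG1, a BMP-binding protein gene, rose in polysome-associated RNA (0.74, SE 0.284, higher in 3 of 4, adjusted p = 0.0718 by edgeR) and in TE (1.19, SE 0.328, 4 of 4, adjusted p = 0.0155 by edgeR) with cercosporamide. For TE with cercosporamide, 3 of the 14 antagonists and repressors rose and 1 fell, a share near the 28.4% of all genes, with NOG among those that rose (1.44, SE 0.47, higher in 3 of 4, adjusted p = 0.0368 by edgeR), with log2 changes from 0.83 to 2.06 over the 13 alternatives.

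Further BMP targets were few. Of 14, 5 were tested. With cercosporamide, 2 of the 5 fell in polysome-associated RNA and none rose, a share near the 32.2% of all genes called, with a list median of -0.41 against -0.01 over all genes. GATA2, a haematopoietic and endothelial transcription factor gene, stood at 11.3 ± 5.01 CPM with DMSO and 5.34 ± 2.32 with cercosporamide and fell (log2 change -0.95, SE 0.272, lower in 4 of 4, adjusted p = 0.0187 by edgeR). The homeobox gene DLX2 fell as well (-1.31, SE 0.532, lower in 3 of 4, adjusted p = 0.0895 by edgeR), with log2 changes from -2.43 to -0.84 over the 13 alternatives and the call lost in 5 of them. DLX2 rests on few reads, with 11 to 30 counts per polysome library with DMSO and 2 to 18 with cercosporamide. With CID661578, edgeR called 0 of the 5 in polysome-associated RNA, against 10.1% of all genes, with 3 at an unadjusted p below 0.05 and 0 called by DESeq2, and the median was -0.58.

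Of 20 further TGF-beta targets, 16 were tested. In polysome-associated RNA, 3 of the 16 rose with CID661578, against 10.1% of all genes called, and 4 with cercosporamide, a share below the 32.2% of all genes. None was lower past the threshold, and the list medians of 0.02 with CID661578 and 0.23 with cercosporamide stood against -0.01 over all genes. With CID661578, GADD45B, a stress-response gene, rose (log2 change 1.33, SE 0.228, higher in 4 of 4, adjusted p = 0.00179 by edgeR), as did the transcription factor gene BHLHE40 (1.05, SE 0.228, 4 of 4, adjusted p = 0.0123 by edgeR). CDKN1A, the gene of the cell cycle inhibitor p21, rose in polysome-associated RNA (0.93, SE 0.205, 4 of 4, adjusted p = 0.0138 by edgeR) and in total RNA (0.95, SE 0.232, 4 of 4, adjusted p = 0.144 by edgeR). With cercosporamide, BHLHE40 (0.68, SE 0.232, adjusted p = 0.0438 by edgeR) and the metalloprotease gene ADAM19 (0.59, SE 0.221, adjusted p = 0.0665 by edgeR) rose in 3 of 4 replicates. KLF11, a transcription factor gene induced early by TGF-beta, was the 1 of 16 on the list that rose in TE with cercosporamide (1.10, SE 0.473, higher in 3 of 4, adjusted p = 0.115 by edgeR), a share below the 28.4% of all genes.

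**Figure D4:**
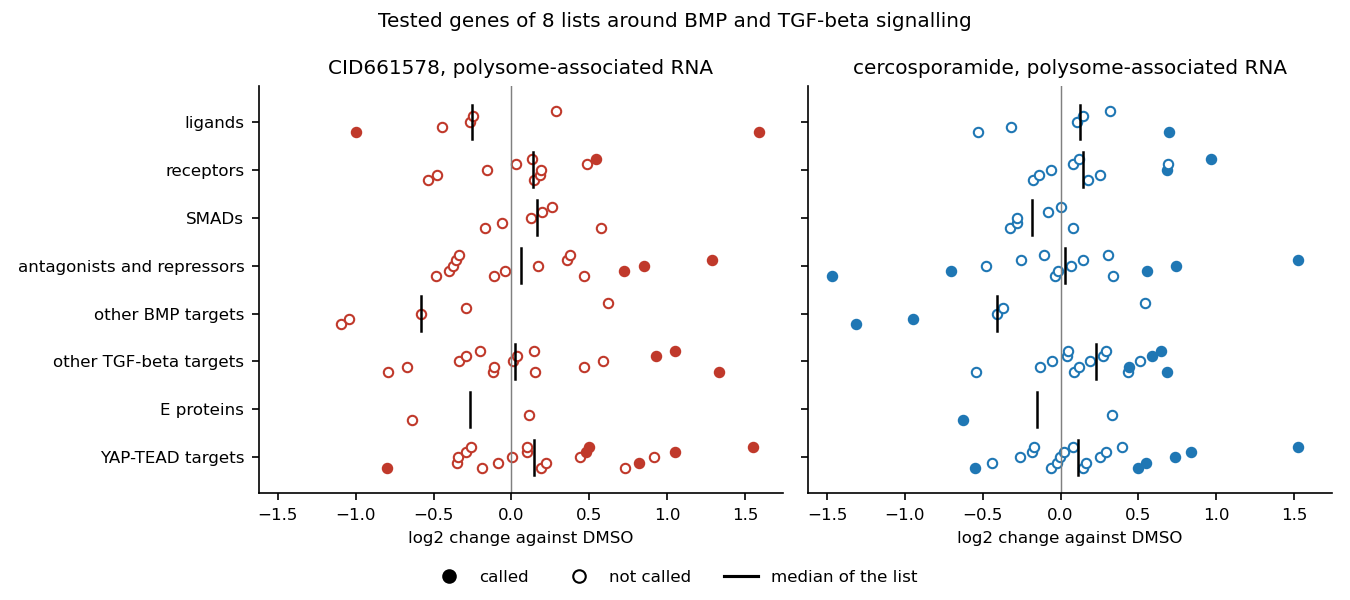
Log2 change in polysome-associated RNA against DMSO for the tested genes of 8 pathway lists with each compound; each point is a gene, filled where edgeR called it, and the bar is the list median. Called genes of the other BMP targets lie below 0 with cercosporamide (2 of 5 tested, against 32.2% of all genes), and those of the other TGF-beta targets lie above 0 with CID661578 (3 of 16, against 10.1%) and with cercosporamide (4 of 16, against 32.2%).

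The E proteins are the partners that ID proteins sequester. Of 3, 2 were tested, and 1 of the 2, TCF3, fell in polysome-associated RNA with cercosporamide, against 32.2% of all genes called (log2 change -0.63, SE 0.288, lower in 3 of 4, adjusted p = 0.132 by edgeR). The other tested E protein gene had an estimate above 0 there and was not called, and the list median was -0.15. Because CCN1 and CCN2 are also YAP and TEAD targets, 21 further genes of that kind were listed and 20 were tested. In polysome-associated RNA, 5 of the 20 rose and 1 fell with each compound. This share lay above the 10.1% of all genes called with CID661578 and near the 32.2% called with cercosporamide, and the list medians were 0.15 and 0.11 in the same order. F3, the tissue factor gene, rose with CID661578 (1.55, SE 0.426, higher in 3 of 4, adjusted p = 0.0514 by edgeR) and with cercosporamide (1.52, SE 0.436, higher in 4 of 4, adjusted p = 0.0185 by edgeR), from a low level of 1.29 ± 0.765 CPM with DMSO. With CID661578, GADD45A (1.05, SE 0.251, adjusted p = 0.0228 by edgeR) and ANKRD1 (0.82, SE 0.243, adjusted p = 0.0676 by edgeR) rose in 4 of 4 replicates. With cercosporamide, the ectonucleotidase gene NT5E rose from 151 ± 23.7 to 252 ± 33.5 CPM (0.73, SE 0.169, higher in 4 of 4, adjusted p = 0.00456 by edgeR) and the kinase gene NUAK2 rose (0.83, SE 0.352, higher in 3 of 4, adjusted p = 0.103 by edgeR). In TE with cercosporamide, 3 of the 20 rose and none fell, a share below the 28.4% of all genes. NT5E (0.84, SE 0.225, adjusted p = 0.0126 by edgeR), CRIM1 (0.75, SE 0.238, adjusted p = 0.0316 by edgeR) and MYOF (0.68, SE 0.234, adjusted p = 0.0493 by edgeR) rose in 4 of 4 replicates.

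In total RNA with CID661578, edgeR called GDF15 and CDKN1A alone among the tested genes of these 8 lists, against 0.448% of all genes. For TE with CID661578 it called none, against 0.207% of all genes, with 1 gene at an unadjusted p below 0.05 in each of 4 lists (antagonists and repressors, other BMP targets, other TGF-beta targets, YAP and TEAD targets), and DESeq2 called 0. In total RNA with cercosporamide, edgeR called none of the tested genes of these 8 lists, against 0.381% of all genes. At an unadjusted p below 0.05 there were 5 further TGF-beta targets, 2 ligands, 2 YAP and TEAD targets and 1 antagonist or repressor, and DESeq2 called 1 further TGF-beta target. The alternatives were read for the named list calls other than that of SKIL in polysome-associated RNA with cercosporamide. Among them, those of NOG, SKI, GATA2, F3 and NT5E in polysome-associated RNA with cercosporamide, and that of NT5E in TE, held under all 13 alternatives. With CID661578, each of the named list calls was lost without the replicate term, and those of GADD45B, BHLHE40, CDKN1A, GADD45A and GDF15 in polysome-associated RNA were lost there alone. Of 12 alternatives, the calls of TGIF1 and of GDF15 in total RNA were lost in 2, that of NOG in 4, those of SKIL, F3, ANKRD1 and, in total RNA, CDKN1A in 5 each, that of INHBB in 6 and that of ACVR1 in 8, including each replicate left out. Removal of the GC trend ended those of ACVR1, INHBB, SKIL and ANKRD1. Over these alternatives, the log2 change of GDF15 ranged from 1.501 to 2.664 in total and from 0.881 to 2.101 in polysome-associated RNA, where that of ACVR1 ranged from 0.22 to 0.64 and that of SKIL from 0.2962 to 0.8382. The other named calls with cercosporamide were each lost in 1 to 6 of 13 alternatives, and removal of the GC trend ended those of ACVR1, TCF3, DLX2, TWSG1 and TGFB2 in polysome-associated RNA and those of SKIL, TWSG1 and TGFB2 in TE. The call of TWSG1 in polysome-associated RNA was lost in 6, one of them without the shallowest library. Log2 changes with cercosporamide ranged in polysome-associated RNA from 0.1606 to 1.055 for TWSG1, from 0.2308 to 0.7429 for ACVR1, from 0.2726 to 0.7996 for ADAM19, from 0.3632 to 1.064 for NUAK2 and from -0.8998 to -0.3842 for TCF3, and in TE from 0.4998 to 1.359 for TWSG1 and from 0.5749 to 1.481 for SKIL.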

How the data were processed

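The counts deposited by the authors were made from paired-end Smart-seq2 libraries by removing adapters and rRNA reads with BBDuk, aligning to hg38 with HISAT2 and counting on RefSeq genes with featureCounts defaults. They cover 54583 genes in 24 libraries and are not normalized. Depth limits precision for low counts, and the shallowest library had 1592459 reads on genes. Genes with 0 counts in any library were removed, which left 12058, and TMM over all libraries and quasi-likelihood tests followed in edgeR 4.0.16 (R 4.3.3, limma 3.58.1). Total and polysome libraries were fitted separately with replicate and treatment terms. The TE fit had a term per plate and per replicate in the polysome fraction, and the DMSO fraction comparison a term per plate. The call threshold was an adjusted p (Benjamini-Hochberg) under 0.15 and, for TE, a change above 1.2-fold as well, as in the methods of the study. The members and the lists (ligands, receptors, SMADs, antagonists and repressors, other BMP targets, other TGF-beta targets, E proteins, YAP-TEAD targets) were chosen with earlier results of these data known. Besides the members, up to 3 called genes per list and comparison with DMSO were named, those with the largest changes, and the 5 genes most like ID2. Alternatives were no replicate term, DESeq2 1.42.0, edgeR with size factors from DESeq2, TMM for the fractions apart, filtering by filterByExpr or not at all, an adjusted p under 0.05, removal of a GC trend (spline with 5 df) with the replicate term kept, each replicate left out, and the shallowest library left out. The fits were checked on simulated counts with known changes and no replicate or plate effects. That check does not bear on calls that depend on the replicate term. Promoter and gene positions came from RefSeq GRCh38.p14.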

Additional observations from a re-analysis of the deposited data

Results flagged for a closer look

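For normally distributed values, chance marks about 1 in 20 groups of 4 replicates by the gap used here, and 7 of 50 groups of the members were marked. ID3 stood at 260.3 CPM in the cercosporamide polysome library of replicate 3, where the other 3 libraries lay between 121.1 and 144.9. CCN2 stood at 312.8 CPM in the DMSO polysome library of replicate 3, with the others between 62.78 and 101.9, and at 528.3 CPM in the cercosporamide polysome library of replicate 3, with the others between 106.2 and 135.3. SMAD7 stood at 4.328 CPM in the DMSO total library of replicate 4, with the others between 2.699 and 2.861. Sparse counts gave the remaining cases. In these groups only 1 library had a read, which the gap always marks, so they cannot be set against that rate. SMAD6 stood at 0.2076 CPM in the DMSO total library of replicate 1, from 2 reads, and at 0.2973 CPM in the cercosporamide total library of replicate 4, from 3 reads, with the other 3 libraries of each group at 0. BAMBI stood at 0.08742 CPM in the CID661578 polysome library of replicate 4, from 1 read, with the other 3 at 0.

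The change with cercosporamide differed between the fractions for CCN1 and CCN2. The TE change, which tests that difference, was 0.7275 on the log2 scale for CCN1 (SE 0.259, higher in 4 of 4 replicates, adjusted p = 0.0562 by edgeR) and 0.5168 for CCN2 (SE 0.228, higher in 4 of 4 replicates, adjusted p = 0.126 by edgeR).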

How the results depend on the processing

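Over the alternatives, 445 member results with a test kept their direction and side of the threshold, 57 lost the call, 2 gained it and 28 turned sign, and of values without a test 129 moved by less than 1 SD and 5 by more, all of ID2 (4 in TE with cercosporamide, 1 between fractions). Of the changes of list genes that met the naming rule, 373 kept the call and 107 lost it. ID1 and ID2 in polysome-associated RNA with cercosporamide, ID2 between compounds in that fraction and ID3 between fractions with DMSO kept their calls in all. Counts are given as genes, then members. The replicate block was used because the study names the replicate as its batch. Of 16 comparisons of treated and DMSO libraries of one number, 13 had r above 0.1 (from -0.0186 to 0.584), and 12 were most like the library of their own number. With no replicate block, genes called were 5 (members 0) with CID661578 and 0 (0) with cercosporamide in total RNA, 69 (0) and 1921 (2) in polysome-associated RNA, 12 (1) and 344 (1) between compounds in total and polysome-associated RNA, and 1 member in TE with cercosporamide, and SMAD7 between compounds on polysomes was -0.0214. With DESeq2, genes were 151 with CID661578, 335 (2) with cercosporamide and 257 between compounds in total RNA, and 51 in TE with CID661578. DESeq2 size factors in edgeR left 1 member in TE with cercosporamide. TMM within each fraction gave 10 genes with cercosporamide in total RNA and 0.20 for CCN1 and 0.20 for CCN2 between fractions, where it moved the median of all genes to 0.26. The filterByExpr filter gave 87 genes with CID661578 and 10 with cercosporamide in total RNA, 1 member in TE with cercosporamide, and 0.0147 and 0.0172 for CCN1 and CCN2 between fractions. With no filter, genes were 231 with CID661578, 171 (2) with cercosporamide and 228 between compounds in total RNA, and 102 in TE with CID661578. It left 1 member in TE with cercosporamide, ID3 at -0.0149 in TE with CID661578, and CCN1 and CCN2 at 0.0507 and 0.053 between fractions. These filters shifted the median of all genes in polysome-associated RNA with cercosporamide to -0.13 and -0.12. At an adjusted p below 0.05, by construction fewer genes passed: 33 with CID661578, 3 with cercosporamide and 25 (1) between compounds in total RNA, 356, 2294 and 1165 (2) in polysome-associated RNA in that order, 1957 (0) in TE with cercosporamide and 1 member between fractions. With the GC trend removed, genes were 195 with CID661578, 729 (2) with cercosporamide and 430 between compounds in total RNA, 302 with CID661578 on polysomes and 13 in TE. It left 1 member between fractions, ID3 at 0.001 and SMAD7 at 0.16 with CID661578 and SMAD7 at 0.12 with cercosporamide on polysomes, ID1 at 0.12 and 0.11 in TE with CID661578 and cercosporamide, and CCN1 at 0.0284 between fractions. Leaving out each replicate, genes ranged from 12 to 75 (members 0 to 2) with CID661578, from 1 to 130 (0 to 1) with cercosporamide and from 19 to 214 (0 to 2) between compounds in total RNA. They ranged from 420 to 1046 with CID661578 and from 949 to 2193 (1 to 4) between compounds on polysomes, where members with cercosporamide ranged from 3 to 5. In TE they ranged from 12 to 341 with CID661578 and from 1816 to 3341 (0 to 1) with cercosporamide, and members between fractions ranged from 1 to 3. In the same fits, log2 changes in total RNA with CID661578 ranged from -0.27 to 0.10 for ID1 and from -0.41 to 0.17 for ID3. On polysomes they ranged from -0.36 to 0.0565 for ID3 and from -0.13 to 0.0643 for SMAD7 with CID661578, from -0.25 to 0.15 for SMAD7 with cercosporamide and from -0.21 to 0.18 for SMAD7 between compounds. In TE with CID661578 they ranged from -0.40 to 0.0077 for ID1, from -0.11 to 0.11 for ID3 and from -0.42 to 0.0789 for CCN1, and in TE with cercosporamide from -0.14 to 0.75 for SMAD7. Between fractions they ranged from -0.19 to 0.21 for CCN1 and from -0.12 to 0.11 for CCN2. Without the shallowest library, cercosporamide replicate 4 on polysomes, genes between compounds on polysomes were 2735, SMAD7 in TE with cercosporamide was -0.0168, and edgeR still called 5 members with cercosporamide on polysomes. Apart from the stricter threshold, the cause was not tested. Among the members, depth limits SMAD7 (8 to 77 counts), ID4, SMAD6 and BAMBI, and ID2 in the shallowest library (9 counts).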
